A study of Mus musculus with 30 samples.

Results

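Phase I xenobiotic enzymes, the enzymes that make the first chemical change to a foreign compound, were followed in the olfactory epithelium of mice on expression arrays. The members were all probe sets annotated to exactly 1 gene whose symbol is Cyp, Fmo, Aldh, Ces or Ephx followed by a number. There were 76 such probe sets among the 12422 that are not controls, for 59 of the 8251 genes that had a probe set of their own. A further 7 probe sets of these families were annotated to several genes, among them a shared probe set of Cyp2a5 and Cyp2a4, and were not members. The 30 arrays came from mice of 6 weeks labelled wild type or SR-A mutant, SR-A being the scavenger receptor of macrophages that Msr1 encodes. The surgery in the series was removal of both olfactory bulbs, where the axons of the sensory neurons end, and the hours on the labels were read as time after that surgery. Each genotype was sampled at 0, 2, 8, 16 and 48 h with 3 arrays per group. The labels do not say whether 0 h mice were unoperated or sampled at once after surgery, and give no strain, sex or allele. The series names 3 mice of each genotype and not which array came from which, so the p-values below rest on a spread among arrays that may be partly technical.

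Cytochrome P450 enzymes (Cyp) are haem proteins of the endoplasmic reticulum or mitochondria that insert oxygen into their substrates with electrons from P450 reductase or ferredoxin. Flavin monooxygenases (Fmo) oxidise nitrogen and sulfur atoms, aldehyde dehydrogenases (Aldh) turn aldehydes into acids, carboxylesterases (Ces) cleave esters and epoxide hydrolases (Ephx) open reactive epoxides. The olfactory mucosa is known for a high content of such enzymes, mostly in the sustentacular cells that support the sensory neurons and in Bowman's glands beneath them, where they clear odorants and inhaled toxicants. Cyp1 genes are the classic targets of Ahr, the aryl hydrocarbon receptor, which with its partner Arnt binds DNA at a short core motif.

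The promoters of 4 members are shown as examples among the genes with large differences at 48 h or 8 h described below. Cyp4v3, which differed more at 48 h than some of these, is not printed; it holds GCGTG 16 to 12 bases before its start. Each run is the 250 bases before the RefSeq start site on the GRCm38.p6 assembly, 5′ to 3′ on the gene's strand, with the Ahr and Arnt core GCGTG in capitals where present.
Cyp1a1, chr9:57697363-57697612, plus strand: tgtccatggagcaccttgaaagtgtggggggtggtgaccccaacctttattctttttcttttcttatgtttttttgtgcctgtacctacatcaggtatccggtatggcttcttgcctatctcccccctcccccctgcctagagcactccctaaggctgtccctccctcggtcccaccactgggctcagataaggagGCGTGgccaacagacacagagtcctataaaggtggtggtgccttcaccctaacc
Cyp1a2, chr9:57683656-57683905, minus strand: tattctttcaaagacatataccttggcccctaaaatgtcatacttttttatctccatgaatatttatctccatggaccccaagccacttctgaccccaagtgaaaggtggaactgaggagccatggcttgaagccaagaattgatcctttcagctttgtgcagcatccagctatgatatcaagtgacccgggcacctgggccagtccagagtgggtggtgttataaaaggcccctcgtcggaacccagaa
Cyp3a13, chr5:137921620-137921869, minus strand: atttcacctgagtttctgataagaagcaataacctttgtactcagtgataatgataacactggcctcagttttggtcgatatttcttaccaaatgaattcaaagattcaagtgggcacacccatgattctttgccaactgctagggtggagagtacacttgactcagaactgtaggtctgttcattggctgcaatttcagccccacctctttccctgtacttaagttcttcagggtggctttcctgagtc
Fmo5, chr3:97628769-97629018, plus strand: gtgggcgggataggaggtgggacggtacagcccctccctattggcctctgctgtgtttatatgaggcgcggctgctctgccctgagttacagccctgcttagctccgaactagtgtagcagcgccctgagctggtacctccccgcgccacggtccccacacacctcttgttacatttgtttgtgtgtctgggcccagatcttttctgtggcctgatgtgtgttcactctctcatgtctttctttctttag

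The Cyp1a1 window held GCGTG from 54 to 50 bases before the start, and the other 3 windows held none of the motifs searched. GCGTG was looked for on both strands, together with the antioxidant response element core TGACNNNGC and the nuclear factor I palindrome, TTGGC and GCCAA with 5 bases between. RefSeq held promoters for 43 of the 59 member genes. GCGTG was in 9 of these 43, against 28.2% of 32851 promoter windows of the same length. Besides Cyp1a1, the tested genes with it were Aldh1a2, Aldh3a2, Aldh9a1, Cyp1b1, Cyp2b10, Cyp4v3 and Cyp51. TGACNNNGC was in 3 of 43, against 10.2% of all windows, and the palindrome in 0 of 43, against 0.0365%. No match of one motif overlapped a match of another. A match is a string of letters and not a shown binding site. Ces1d and Fmo1 had no entry.

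All 30 arrays had been scaled alike, with 2% trimmed mean signals of 1500.7 to 1500.9 and only 3 arrays per group to set the precision of a mean. Their bright ends were less alike. The 95th percentile of signal was 7770.2 to 8203.4 in the 15 wild-type-labelled arrays. It was 8060.3 to 8419.8 in the 12 mutant-labelled arrays of times other than 2 h. An RNA-quality control was unlike the rest in the 3 arrays labelled mutant 2 h: their log2 ratio of 3′ to 5′ Gapdh control signal was 5.589, 0.152 and 1.266, against -0.311 to -0.128 in the other 27 arrays. The same ratio for Actb was 2.271 in replicate 1, above the 0.447 to 1.112 of the other 27, but 1.023 in replicate 2, inside that range, and 0.427 in replicate 3, just below it. They were left out of the shared fit and enter only their own comparison. The tissue label was borne out by markers of olfactory neurons: Omp and the other tested markers, 3 in all, summed to 44207.9 to 52586.9 in the wild-type-labelled 0 h arrays and 24327.2 to 29690.9 at 48 h. Msr1 was higher, not lower, under the mutant label. Its brighter probe set read 442.0 ± 82.2 (SD, n = 15) in mutant-labelled and 155.4 ± 63 (SD, n = 15) in wild-type-labelled arrays, a log2 difference of 1.63 (two-sided permutation test, p = 2e-05, the smallest that 100000 resamples can give). Its dimmer probe set gave 1.30 with the same p. Both were too dim to be tested with the rest, and which part of Msr1 they cover is not known here. All genotype differences below are therefore differences between labels, mutant-labelled minus wild-type-labelled. Replicate 2 of the wild-type-labelled 48 h group differed from its companions in many members. It was the highest of the 3 arrays in 16 of the 18 probe sets that later passed the 48 h genotype test and the lowest in 0.

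Of the 76 member probe sets, 37 for 31 genes were bright enough to be tested, meaning that at least 3 of the 27 arrays exceeded the pooled median signal of 578.5. The other 39 were not tested. In 36 of these no array reached that median, and in 21 all 27 arrays lay at or below 115.9, the pooled 25th percentile used as a floor. The untested probe sets included the liver enzymes of bile acid synthesis Cyp7a1 (median signal 28.2) and Cyp8b1 (63), the liver forms Cyp3a11 (12.4), Cyp2c70 (41.1) and Cyp4a10 (38.2), and the steroid makers Cyp11a1 (34.3) and Cyp17a1 (81.6). Ces1g (25.9), Ces3a (70.2), Cyp2j6 (13) and Ephx2 (170.3) were also untested. A dim probe set bounds only what it can detect and does not show that the gene is silent. Nearest below the limit were the Cyp7b1 probe sets, with medians of 436.1 and 429.4. By family, tested probe sets numbered 14 of 18 for Aldh, 7 of 18 for Cyp2, 4 of 7 for Cyp4, 3 of 5 for Cyp1, 3 of 6 for Ces, 1 of 4 for Cyp3, 2 of 3 for Fmo, 1 of 2 for Ephx and 2 of 13 for the other Cyp families.

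Members with bright probe sets in every array included Aldh1a1, a retinaldehyde dehydrogenase (24074.0 to 37831.4 in the 12 wild-type-labelled arrays of 0, 8, 16 and 48 h), and Cyp2f2, which activates naphthalene (21154.5 to 29939.6). The main probe set of Ces1d, an esterase, read 12994.3 to 19895.1 in the same arrays, and that of Cyp1a2, which oxidises aryl amines, 8390.2 to 18539.4. Aldh3a1, known from the cornea, read 7149.2 to 16999.2, and Cyp4b1, which acts on fatty acids and furans, 4604.0 to 10710.6. These are levels on each probe set's own scale and cannot be ranked between genes. Aldh1a1 and Aldh1a7 are close relatives, as are the Ces1 genes, so their probes may share signal.

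**Figure D1:**
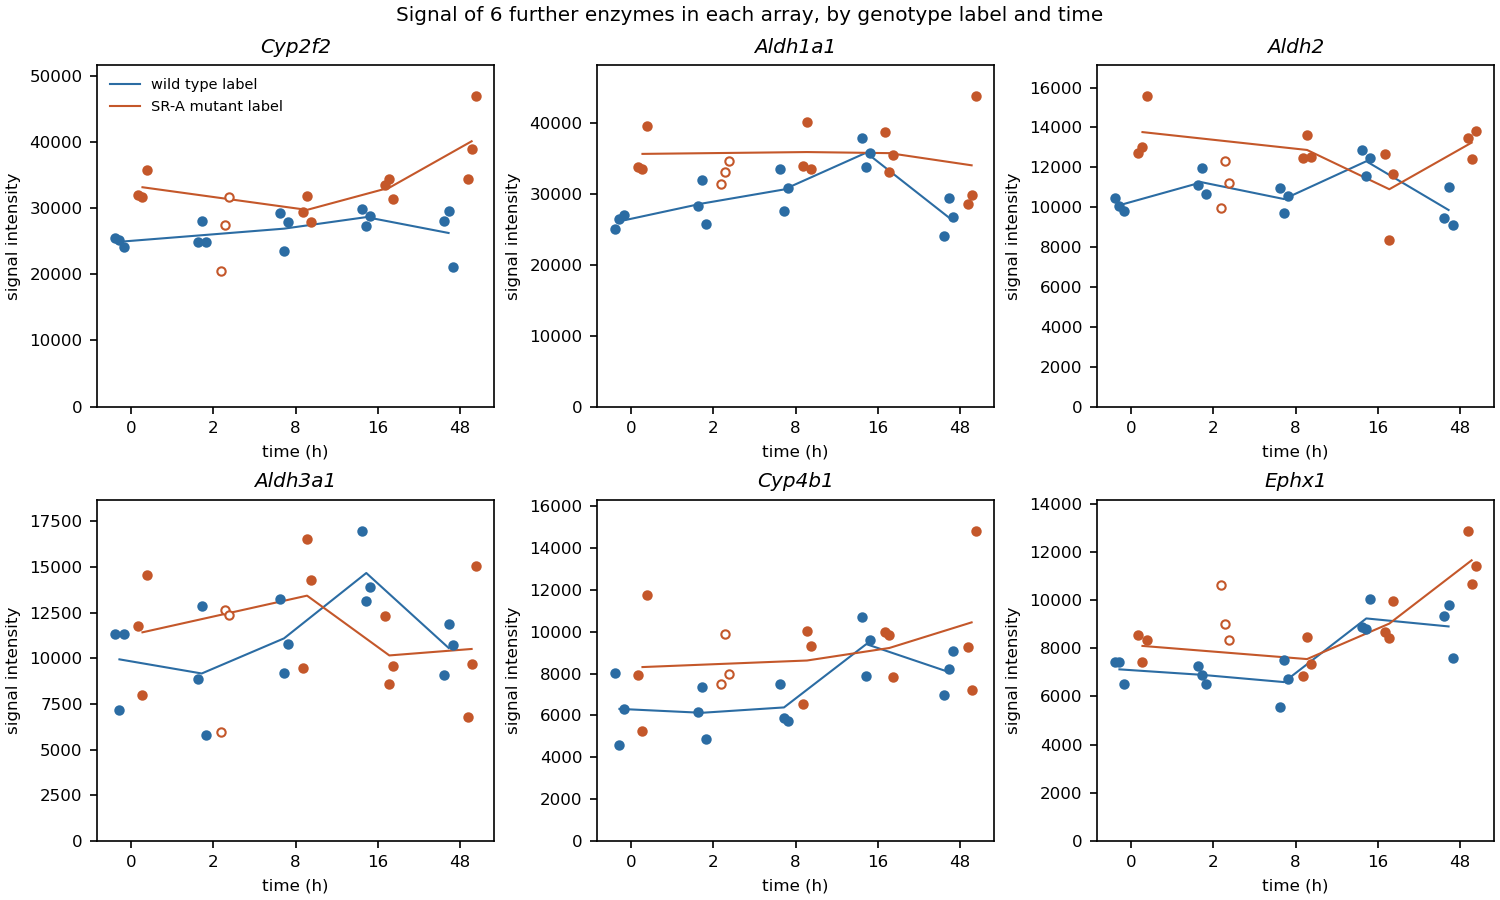
Signal intensity (vertical axis, from 0) of 6 enzymes against time, with the 5 times evenly spaced on the horizontal axis. Points are single arrays, lines join the means of 3 arrays, and the open points are the mutant-labelled 2 h arrays, which the mutant-labelled line skips. For Cyp2f2 the 3 mutant-labelled arrays lay above all 3 wild-type-labelled ones at 0 h and at 48 h, while Aldh3a1 and Cyp4b1 overlapped at both.

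At 48 h the tested members that differed between the genotype labels were higher in the mutant-labelled arrays. Of 37 probe sets, 18 for 14 genes were higher in the mutant-labelled arrays and 0 were lower, with limma's adjusted p under 0.05, which is what called means below. That is 48.6% of the members. Of all 6917 probe sets tested, 20% were called, 9.02% higher and 11% lower. The median log2 difference was 0.39 for the members and -0.03 for all probe sets, and 27 of 37 members were above 0. In 17 of 37 all 3 mutant-labelled arrays lay above all 3 wild-type-labelled ones, against 14.4% of all probe sets, and in 1, the dimmer Aldh3a2 probe set, all lay below, against 16%. Called were 2 of 3 Cyp1 probe sets, 3 of 7 Cyp2, 1 of 1 Cyp3, 2 of 4 Cyp4, 0 of 2 other Cyp, 2 of 2 Fmo, 2 of 3 Ces, 1 of 1 Ephx and 5 of 14 Aldh. The comparisons at 8, 16 and 48 h alone were added after values had been seen. Without replicate 2 of the wild-type-labelled group there were again 18 calls, all higher, with Cyp2b10 (0.95) lost and Aldh1a2 gained. Without other single arrays the count ran from 10, when wild-type-labelled replicate 3 was left out, to 18, with 13 without mutant-labelled replicate 2 or 3. A fit of the 6 arrays of 48 h alone called 5 probe sets, those of Ces1d (the dimmer), Cyp1a2, Cyp3a13, Fmo1 and Fmo5. With no filter on low signals 16 of all 76 members were called, 15 higher and 1, the dim Cyp7b1, lower.

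**Figure D2:**
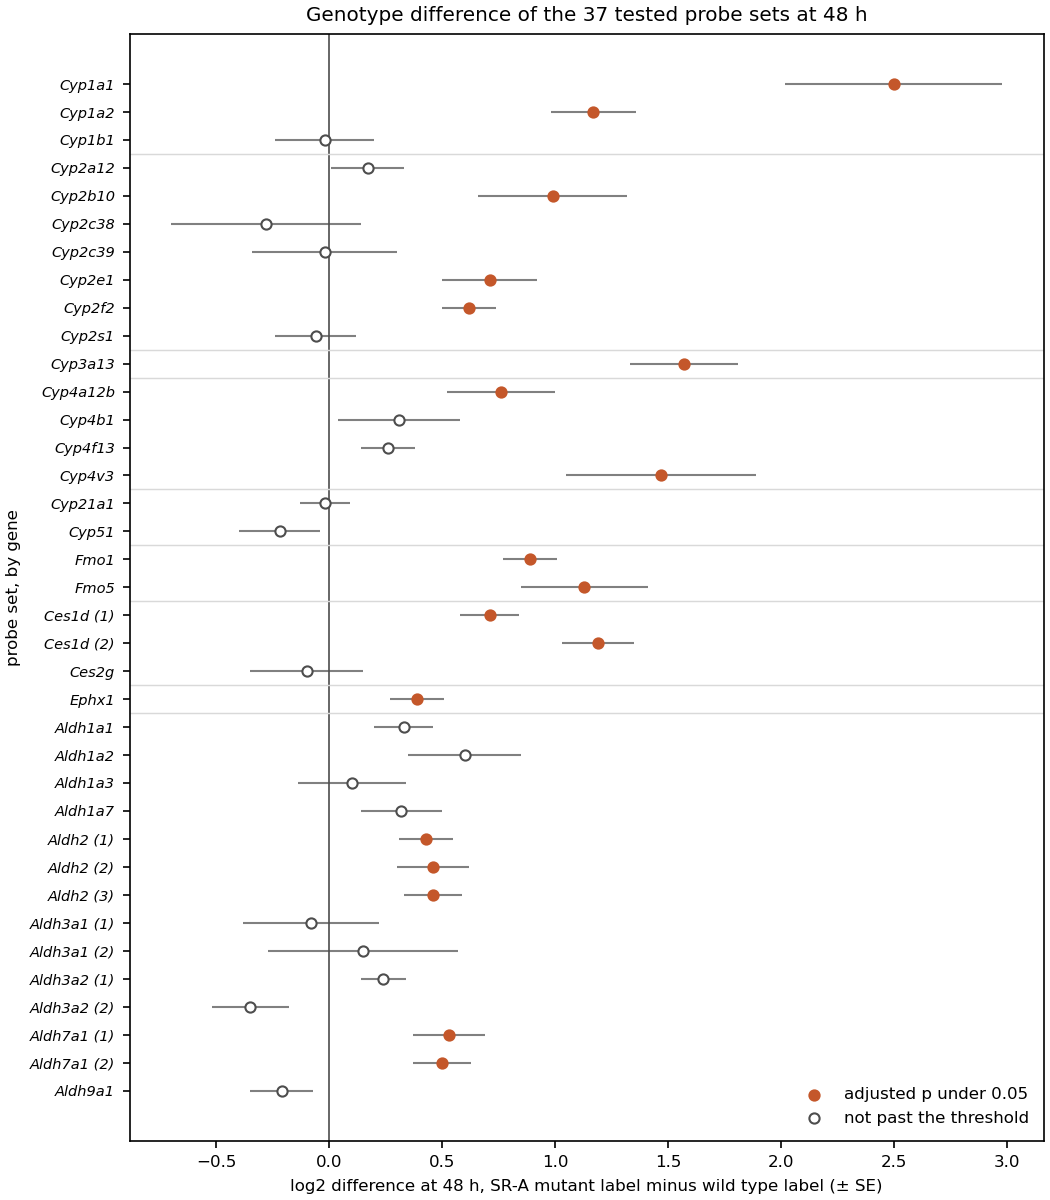
Log2 difference in signal at 48 h, mutant-labelled minus wild-type-labelled, for the 37 tested probe sets grouped by family, with bars of ± 1 SE from limma and 3 arrays per label. Filled points passed an adjusted p of 0.05: all 18 lie right of 0, from Ephx1 at 0.39 to Cyp1a1 at 2.50, and numbers in brackets mark probe sets of the same gene, the brightest first.

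Cyp1a1, which oxidises aromatic hydrocarbons, differed most. Its signal at 48 h was 535.9, 2933.9 and 554.9 in the wild-type-labelled arrays and 6488.0, 4897.5 and 4927.2 in the mutant-labelled ones. The groups did not overlap, but wild-type-labelled replicate 2 sat closer to the mutant-labelled arrays than to its companions. The log2 difference was 2.50 ± 0.48 (SE; adjusted p = 0.000988), 3.31 without that replicate, and it was not called in the fit of the 48 h arrays alone (adjusted p = 0.0507). A second Cyp1a1 probe set, too dim to test (median signal 101.3), was at 0.29 at 48 h. Cyp1a2, the neighbouring gene on chromosome 9, read 11640.8, 18539.4 and 8390.2 against 27418.5, 30001.1 and 25083.1. Again no array overlapped and replicate 2 was the highest of the wild-type-labelled ones. Its difference was 1.17 ± 0.19 (adjusted p = 0.000287). Cyp1b1, the third of the family, did not pass, at -0.02 ± 0.22. Cyp3a13, a member of the drug-oxidising Cyp3a family, read 1764.9, 3812.2 and 1557.9 against 6674.6, 6464.3 and 6407.2. All 3 mutant-labelled arrays were high and close together, and the difference was 1.57 ± 0.24 (adjusted p = 0.000126), or 1.97 without wild-type-labelled replicate 2.

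Both flavin monooxygenases were higher in the mutant-labelled arrays. Fmo5, which oxygenates ketones as well as nitrogen, read 1540.4, 2226.5 and 1544.6 in wild-type-labelled and 4020.6, 3949.1 and 3521.8 in mutant-labelled arrays at 48 h. The difference was 1.13 ± 0.28 (adjusted p = 0.00684). A second Fmo5 probe set, too dim to test (median signal 65.8), was at 0.59. Fmo1, which oxidises amines and sulfides, read 2440.3, 3590.6 and 3288.7 against 5569.4, 5598.2 and 5880.6. Neither gene's groups overlapped, and Fmo1 differed by 0.89 ± 0.12 (adjusted p = 4.46e-05). Both probe sets of Ces1d were called. The dimmer read 10226.2, 15421.8 and 9358.1 against 24110.6, 23834.8 and 30545.5, a difference of 1.19 ± 0.16 (adjusted p = 3.04e-05), and the brighter differed by 0.71 ± 0.13 (adjusted p = 0.000578). Ces2g, another esterase, did not pass, at -0.10 ± 0.25. Ephx1, the microsomal epoxide hydrolase, read 9321.8, 9788.0 and 7606.6 against 12889.0, 10648.2 and 11418.4, without overlap. Its difference of 0.39 ± 0.12 (adjusted p = 0.0254) was lost without mutant-labelled replicate 1 (0.32), without wild-type-labelled replicate 3 (0.28) and after quantile normalization (0.33).

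Among Cyp2 enzymes, Cyp2f2 read 28057.6, 29584.4 and 21154.5 against 34477.7, 38988.3 and 46946.6, a difference of 0.62 ± 0.12 (adjusted p = 0.00114) with no overlap. It passed without each single array in turn. Cyp2e1, which oxidises ethanol and other small molecules, read 2139.3, 1863.3 and 1050.3 against 2662.3, 2604.7 and 2646.1. The mutant-labelled arrays were nearly equal and the wild-type-labelled ones spread. Its difference of 0.71 ± 0.21 (adjusted p = 0.0226) was not called without wild-type-labelled replicate 3 (0.40) or mutant-labelled replicate 2 (0.72) or 3 (0.71). Cyp2b10, the phenobarbital-inducible form, read 1935.9, 1595.9 and 1556.9 against 2162.7, 2773.9 and 6278.6, with mutant-labelled replicate 3 far above the rest. Its difference of 0.99 ± 0.33 (adjusted p = 0.0371) was not called without that array (0.54), nor without wild-type-labelled replicate 1 (1.09), 2 (0.95) or 3 (0.93). Cyp2a12, Cyp2c38, Cyp2c39 and Cyp2s1 did not pass.

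The Cyp4 family acts on fatty acids. Cyp4v3 read 4579.5, 5749.3 and 1994.9 against 11217.7, 9707.5 and 10293.8 at 48 h, with no overlap. Its difference was 1.47 ± 0.42 (adjusted p = 0.0173), not called without wild-type-labelled replicate 3 (1.02). Cyp4v3 and Ces1d lie on chromosome 8, as does Msr1, so that for them linkage to the targeted locus and the genotype cannot be told apart. Cyp4a12b, an omega-hydroxylase of arachidonic acid, read 2309.7, 3948.5 and 3815.4 against 4524.6, 6209.4 and 6075.0. The difference of 0.76 ± 0.24 (adjusted p = 0.0275) was not called without wild-type-labelled replicate 1 (0.52) or mutant-labelled replicate 2 (0.68) or 3 (0.70). Cyp4b1 (0.31 ± 0.27) and Cyp4f13 (0.26 ± 0.12) did not pass.

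Of the aldehyde dehydrogenases, all 3 probe sets of Aldh2, the mitochondrial enzyme that clears acetaldehyde, and both of Aldh7a1, which acts in lysine breakdown, were called higher. The brightest Aldh2 probe set read 9483.7, 11007.0 and 9091.6 against 13484.9, 12425.5 and 13807.0, without overlap. The Aldh2 differences were 0.43 ± 0.12, 0.46 ± 0.16 and 0.46 ± 0.13 (adjusted p = 0.0144, 0.0433 and 0.0154). Without wild-type-labelled replicate 3 all 3 Aldh2 calls were lost (0.37 to 0.40). Calls were also lost for 2 of them without mutant-labelled replicate 3 (0.39 and 0.36), and for 1 without mutant-labelled replicate 2 (0.48) or wild-type-labelled replicate 1 (0.33). Aldh7a1 differed by 0.53 ± 0.16 and 0.50 ± 0.13 (adjusted p = 0.0219 and 0.00751), and both calls were lost without mutant-labelled replicate 2 (0.33 each), which was its highest array. The first was also lost without wild-type-labelled replicate 1 (0.52) or 3 (0.39). The retinaldehyde dehydrogenases did not pass: Aldh1a1 was at 0.33 ± 0.13, Aldh1a2 at 0.60 ± 0.25 and Aldh1a3 at 0.10 ± 0.24. Aldh3a1 (-0.08 ± 0.30) and Aldh9a1 (-0.21 ± 0.14), which makes a carnitine precursor, did not pass either.

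Some markers of other cell types differed between the labels at 48 h, where 20% of all probe sets were called (9.02% higher, 11% lower). In bulk tissue fewer cells of a type and less RNA per cell cannot be told apart. Of 5 tested squamous epithelium markers, 3 were lower in the mutant-labelled arrays (Krt6a -3.00, Sprr1a -1.71, Sprr2f -4.36). The summed signal of all 5 was 18056.6, 9672.8 and 20767.3 in the wild-type-labelled arrays, lowest in replicate 2, and 3262.9 to 4680.0 in the mutant-labelled ones. Of 6 tested fibroblast markers, 4 were higher in the mutant-labelled arrays (Col1a1 1.71, Col1a2 1.32, Lum 0.71, Dcn 0.52). The summed signal of all 6 was 40454.8, 48089.4 and 34533.3 against 64011.4 to 98351.5, highest of the wild-type-labelled arrays in replicate 2. Sustentacular cells are the epithelial type known for these enzymes. Of their 9 markers limma called 0 (0 at an unadjusted p under 0.05), with a median of -0.09 and sums of 61204.4 to 63272.8 against 53469.4 to 61825.7. Of 7 Bowman's gland markers only Pigr was called, lower by label, the median was -1.01 and the sums overlapped, at 138181.3 to 163024.4 against 112386.0 to 246496.9. Of 9 macrophage markers 3 were higher, and of 7 neutrophil markers 1 was higher and 2 lower. Of the mature and immature neuron lists 1 of 3 and 1 of 6 were higher, of ciliated cell markers 1 of 5 was higher and of horizontal basal cell markers 1 of 3 lower. Of the liver markers only Ahsg could be tested and it was not called. Among the markers on the array, Krt14 (basal cells) and Fcer1g (macrophages) had all arrays at or below the floor, and none of the squamous, fibroblast, sustentacular or gland lists did. The part of these cell types in the enzyme differences was not tested.

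**Figure D3:**
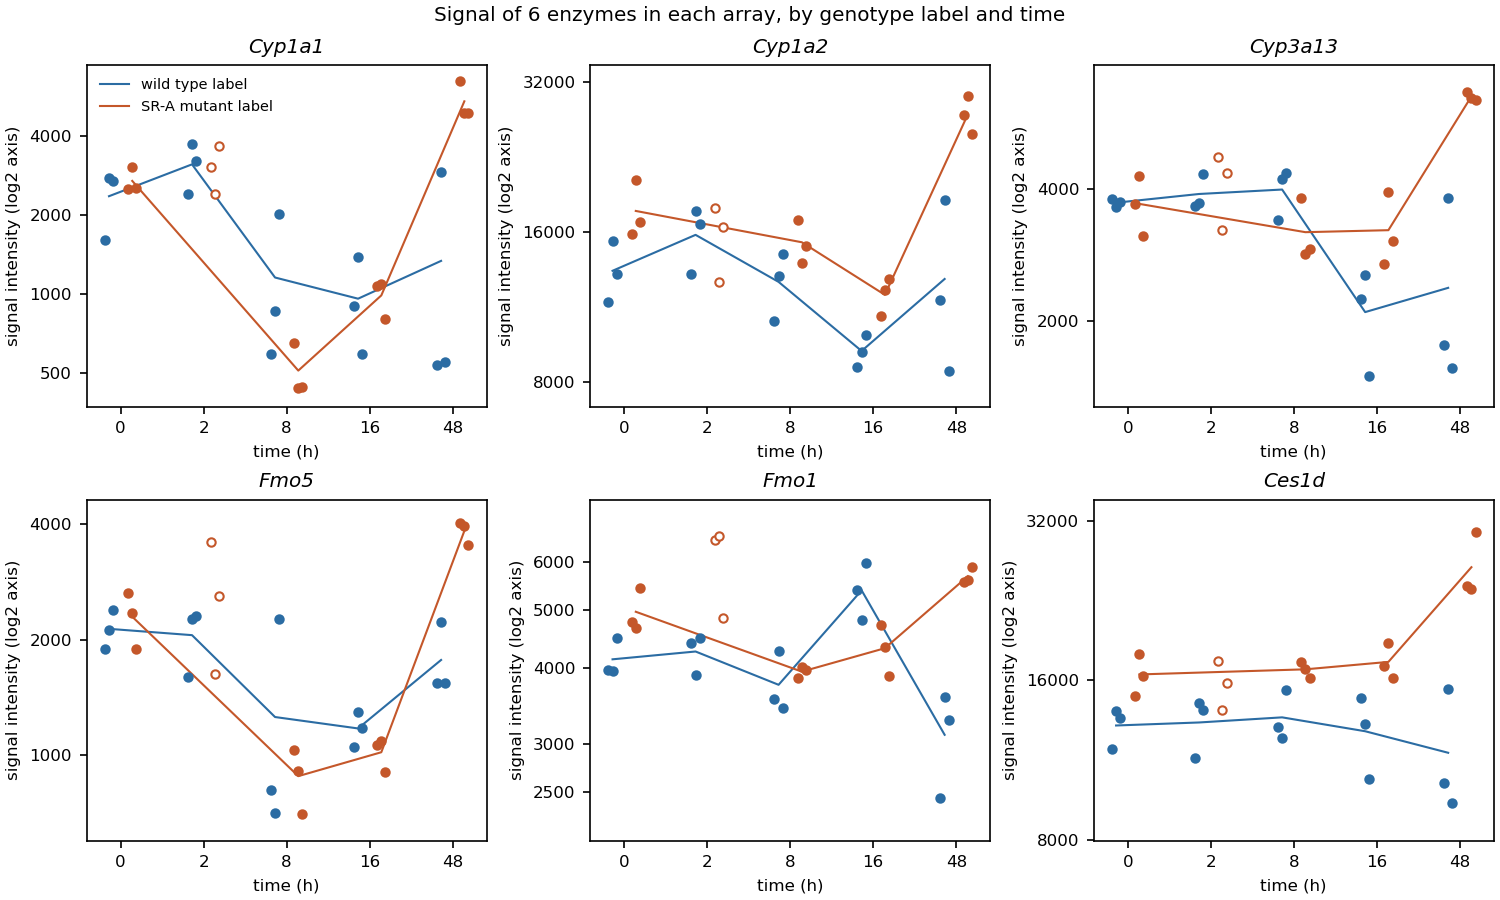
Signal intensity of 6 enzymes in every array (log2 vertical axis) against time, with the 5 times evenly spaced. Points are single arrays, lines join the means of 3 arrays and skip the mutant-labelled 2 h arrays, drawn as open points; the Ces1d panel shows its dimmer probe set. At 48 h the mutant-labelled arrays lie above the wild-type-labelled ones in all 6 panels (Cyp1a1 4897.5 and higher against 2933.9 and lower), and at 8 h Cyp1a1 and Fmo5 are low in all but wild-type-labelled replicate 3.

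To ask whether the 48 h change itself differed between the labels, the change from 0 h in mutant-labelled arrays was compared with that in wild-type-labelled ones. The difference was called for 4 of 37 members, all larger in the mutant-labelled arrays, against 4.21% of all probe sets (1.75% in that direction, 2.46% in the other). The median was 0.28 for the members and 0.03 for all probe sets. Cyp3a13 was at 3792.0, 3639.1 and 3737.9 in wild-type-labelled and 3699.9, 4277.6 and 3122.2 in mutant-labelled arrays at 0 h, where the groups overlapped. It fell by 0.77 on the log2 scale under the first label and rose by 0.83 ± 0.24 under the second, a difference of 1.59 ± 0.34 (adjusted p = 0.011) that passed without each single array in turn but not in a fit of only the 12 arrays of these groups (adjusted p = 0.062), where limma called 0 members and 10 had an unadjusted p under 0.05. Cyp2e1 read 3032.4, 2313.7 and 2657.9 in wild-type-labelled and 2099.3, 1921.8 and 1942.6 in mutant-labelled arrays at 0 h, the reverse order of 48 h. Its changes differed by 1.13 ± 0.30 (adjusted p = 0.038). The dimmer Ces1d probe set (0.87 ± 0.23, adjusted p = 0.0302) and Fmo1 (0.63 ± 0.17, adjusted p = 0.042) also passed. None of these 3 calls passed without each single array in turn, though the differences kept their direction. Cyp2e1 was lost (0.82 to 1.17) without any mutant-labelled 0 h array, mutant-labelled 48 h replicate 2 or 3, wild-type-labelled 0 h replicate 1 or 3, or wild-type-labelled 48 h replicate 3. Ces1d was lost (0.73 to 0.87) without mutant-labelled replicates 1 and 3 of 0 h and 3 of 48 h, or wild-type-labelled replicates 2 and 3 of 0 h and 1 and 3 of 48 h, each alone. Fmo1 was lost (0.46 to 0.70) without any of the 12 arrays but mutant-labelled 48 h replicate 1 and wild-type-labelled 48 h replicate 2. It was also lost with all 30 arrays in the fit (adjusted p = 0.0711), with no filter (0.0638), in the fit of only the groups compared (0.139) and with the replicate number as a block (0.0522). Cyp1a1 did not pass with all arrays (2.27 ± 0.68, adjusted p = 0.0606). Without wild-type-labelled 48 h replicate 2 the count was 7, adding Cyp1a1 (3.08), Cyp1a2 (1.07) and the brighter Ces1d probe set (0.70). Across single arrays left out it ran from 1 to 7. These comparisons share arrays with those at 0 and 48 h.

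A moderated F test over the changes at 8, 16 and 48 h asked whether the time course as a whole differed between the labels. It called 5 of 37 members, against 6.12% of all probe sets: Fmo1 (adjusted p = 0.00177), Cyp3a13 (0.00663), Cyp1a1 (0.0173), the dimmer Ces1d probe set (0.0402) and Aldh9a1 (0.0496). Fmo1 in wild-type-labelled arrays was highest at 16 h (5383.5, 4805.9 and 5967.4) and lowest at 48 h, whereas mutant-labelled arrays went from 3858.0, 4024.4 and 3972.2 at 8 h to their high at 48 h. Fmo1 and Cyp3a13 passed in every alternative run. Cyp1a1 missed without wild-type-labelled 48 h replicate 1 (adjusted p = 0.0501) or 3 (0.0583) and passed in its other alternatives. Ces1d was lost without any of these mutant-labelled arrays: replicates 1 and 3 of 0 h, 2 and 3 of 8 h, 3 of 16 h and 3 of 48 h. It was also lost without wild-type-labelled replicates 2 and 3 of 0 h, 3 of 8 h, 2 of 16 h and 1 and 3 of 48 h, each alone (adjusted p from 0.0508 to 0.109). Aldh9a1 was lost without any single array but mutant-labelled 0 h replicate 2, 8 h replicate 1, 16 h replicate 1 and 48 h replicate 3 and wild-type-labelled 48 h replicate 2 (adjusted p from 0.0512 to 0.14). It was lost in all 7 other alternatives too (0.0504 to 0.0783). The count ran from 2 to 9 across arrays left out, with 9 without wild-type-labelled 48 h replicate 2.

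In the wild-type-labelled arrays few members changed with time. At 2 h limma called 0 of 37 (5 at an unadjusted p under 0.05), against 1.94% of all probe sets (1.26% higher, 0.679% lower), and at 8 h 0 of 37 (3 unadjusted), against 0.246% (0.202% higher, 0.0434% lower). At 8 h Cyp1a1 read 590.7, 866.2 and 2021.4, after 1612.8, 2770.0 and 2714.5 at 0 h, and Fmo5 read 811.3, 707.3 and 2257.0, after 1888.4, 2124.2 and 2386.3. In both genes replicates 1 and 2 were low and replicate 3 was at the 0 h level. The differences, -1.18 ± 0.48 and -0.96 ± 0.28, did not pass. Without replicate 3 Fmo5 was called (-1.49), and Cyp1a1 (-1.68) was not. The summed squamous marker signal in the same 8 h arrays was 9124.9, 7280.3 and 4257.5, lowest in replicate 3, after 3097.0 to 4117.7 at 0 h.

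At 16 h limma called 3 of 37 wild-type-labelled members, 1 higher and 2 lower, against 9.74% of all probe sets (5% higher, 4.74% lower). Cyp3a13 read 2241.2, 2540.9 and 1497.6, all below the 0 h arrays (-0.87 ± 0.24, adjusted p = 0.027). Aldh1a1 rose from 25007.0, 26402.4 and 27008.8 to 37831.4, 33869.0 and 35767.7 (0.45 ± 0.13, adjusted p = 0.0356). Cyp21a1, the steroid hydroxylase of the adrenal, fell (-0.38 ± 0.11, adjusted p = 0.0341). No array overlapped in these genes, yet leaving out any single array of either time ended the calls of Aldh1a1 (0.41 to 0.49) and Cyp21a1 (-0.42 to -0.33). Cyp3a13 was lost likewise (-0.93 to -0.64), except without 16 h replicate 2. Cyp1a1 (905.4, 1392.2 and 591.1) lay below its 0 h arrays without overlap and did not pass (-1.34 ± 0.48, adjusted p = 0.078). The squamous sum at 16 h was 5031.3 to 11341.0 and the fibroblast sum 88145.0 to 97881.9. The sustentacular sum was 58813.5 to 68985.1, against 49809.0 to 51693.4 at 0 h, with 2 of 9 markers called higher. Of 9 macrophage markers 3 were called higher. The part of these cell types in the 16 h changes was not tested.

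At 48 h 4 wild-type-labelled members were called, all lower, against 18.9% of all probe sets (9.87% higher, 9.06% lower), with a median of -0.18 for the members and -0.02 for all. The dimmer tested Aldh7a1 probe set fell from 1807.9, 1625.2 and 1809.7 to 1229.9, 1301.7 and 1226.1 (-0.48 ± 0.13, adjusted p = 0.00979), in every alternative run. The brighter Aldh7a1 probe set was tested and not called. Fmo1 fell from 3970.2, 3957.4 and 4496.1 to the values above (-0.43 ± 0.12, adjusted p = 0.0172), lost without 0 h replicate 3 (-0.37) or 48 h replicate 1 (-0.27). Cyp2e1 fell by 0.72 ± 0.21 (adjusted p = 0.0224), lost without 0 h replicate 1 (-0.62) or 3 (-0.72) or 48 h replicate 3 (-0.41). Cyp3a13 (-0.77 ± 0.24, adjusted p = 0.0284) overlapped its 0 h arrays through 48 h replicate 2. It was lost without any other single array of these groups (-0.78 to -0.52). Without 48 h replicate 2 it stood at -1.17, and 6 members were called, all lower, adding Cyp1a1 (-2.07) and Ces1d. Across arrays left out the count ran from 1, without 0 h replicate 3, to 6, and without 48 h replicate 3 Aldh9a1 and Ephx1 were called higher. The squamous sum was 3097.0 to 4117.7 at 0 h and 9672.8 to 20767.3 at 48 h. The fibroblast sum was 93076.5 to 115406.3 at 0 h and 34533.3 to 48089.4 at 48 h. The sustentacular sum was 49809.0 to 51693.4 at 0 h and 61204.4 to 63272.8 at 48 h, with 3 of 9 markers called higher. Of 9 macrophage markers 6 were called higher, and of 3 mature neuron markers 3 were called lower. The part of these cell types in these changes was not tested.

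In the mutant-labelled arrays the 8 h time point was marked by Cyp1a1 and Fmo5. These were 2 of 2 calls among 37 members, both lower, against 2.59% of all probe sets (1.73% higher, 0.853% lower). Cyp1a1 went from 2510.1, 3058.7 and 2547.8 at 0 h to 653.3, 439.7 and 444.5, far below and without overlap. It fell by 2.42 ± 0.48 on the log2 scale (adjusted p = 0.00757) in every alternative run. Fmo5 went from 2650.2, 2345.8 and 1885.3 to 1031.1, 913.9 and 706.0 (-1.38 ± 0.28, adjusted p = 0.00828), and was lost without 8 h replicate 3 (-1.23). The squamous marker sum in these arrays was 16566.8 to 17859.9, against 3216.5 to 4724.5 at 0 h. The fibroblast sum was 75137.1 to 116197.9, against 118838.1 to 131252.3. The sustentacular sum was 68131.6 to 74975.8, against 52573.2 to 53505.8. Of the 9 sustentacular markers 1 was called, higher, and their median was 0.29. The part of these cell types in the fall was not tested. At 16 h 2 members were called, both lower, against 5.15% of all (2.63% higher, 2.52% lower). Fmo5 stayed low, at 1065.6, 1089.4 and 903.5 (-1.16 ± 0.28, adjusted p = 0.0202). Aldh9a1 went from 797.6, 734.2 and 898.0 to 660.3, 546.1 and 498.9 (-0.52 ± 0.14, adjusted p = 0.0303). Neither call passed without each single array in turn, though the differences kept their direction. Fmo5 was lost without 0 h replicate 1 (-1.05) or 2 (-1.14) or 16 h replicate 2 (-1.21) or 3 (-1.08). Aldh9a1 was lost without 0 h replicate 1 (-0.52) or 3 (-0.44) or 16 h replicate 2 (-0.49) or 3 (-0.43). The count ran from 0 to 3. The squamous sum at 16 h was 5998.0 to 7882.8 and the sustentacular sum 68323.6 to 72595.0, with 1 of 9 sustentacular markers called higher.

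At 48 h 5 mutant-labelled members were called, 4 higher and 1 lower, against 13.2% of all probe sets (6.49% higher, 6.75% lower). The median was 0.19 for the members and 0.02 for all. Ephx1 rose from 8530.9, 7422.4 and 8334.5 (0.52 ± 0.12, adjusted p = 0.00698), and passed without each single array in turn. Cyp3a13 (0.83 ± 0.24, adjusted p = 0.026), Cyp1a2 (0.65 ± 0.19, adjusted p = 0.0309) and the dimmer Ces1d probe set (0.67 ± 0.16, adjusted p = 0.0083) rose, each to 3 arrays above all of 0 h. Cyp51, the lanosterol demethylase of cholesterol synthesis, fell from 684.0, 773.5 and 590.2 to 492.4, 366.3 and 463.1 (-0.63 ± 0.18, adjusted p = 0.026). Ces1d was lost without 48 h replicate 3 (0.55). Cyp3a13 and Cyp1a2 were lost without 0 h replicate 1 (0.83 and 0.58) or 3 (0.71 and 0.61) or 48 h replicate 2 (0.83 and 0.58) or 3 (0.84 and 0.71). Cyp51 was lost without 0 h replicate 1 (-0.63) or 2 (-0.54) or 48 h replicate 2 (-0.51) or 3 (-0.68). The count ran from 1, without 48 h replicate 3, to 5. At 48 h the squamous sum was 3262.9 to 4680.0, within the range of 0 h (3216.5 to 4724.5). The fibroblast sum was 64011.4 to 98351.5, below that of 0 h (118838.1 to 131252.3). The sustentacular sum was 53469.4 to 61825.7, overlapping that of 0 h (52573.2 to 53505.8). Of 9 macrophage markers 5 were called higher. Cyp1a1 and Fmo5, back from their 8 h lows, ended above all 0 h arrays but did not pass against 0 h (adjusted p = 0.17 and 0.0787). A fit of only these 6 arrays did call both (0.0179 and 0.0432; over all alternatives run for each, from 0.0179 and 0.0432 up to 0.297 and 0.224), with Cyp3a13, and not Ephx1, Ces1d, Cyp1a2 or Cyp51.

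The mutant-labelled arrays of 2 h, with their divergent Gapdh control, were compared with 0 h in a fit of all 30 arrays. It called 3 of 37 members, against 17.8% of all probe sets (7.43% higher, 10.4% lower). Aldh9a1 read 1534.8, 1311.3 and 1121.7, above all 0 h arrays (0.70 ± 0.14, adjusted p = 0.00143). Aldh1a7 was higher (0.58 ± 0.19, adjusted p = 0.037), and 1 Aldh2 probe set was lower (-0.75 ± 0.22, adjusted p = 0.0187), with replicate 1 at 3218.4 and the others at 7781.6 and 7957.3. Without that replicate, the one with the highest Gapdh ratio, Aldh2 stood at -0.32 and was not called. It was also lost without 0 h replicate 3 (-0.65), and Aldh1a7 without 2 h replicate 1 (0.45) or 2 (0.55) or any 0 h array (0.57 to 0.59). With only replicate 2 of the 2 h group 1 member was called, in a fit that takes all the spread of this group from the others. Across single arrays left out the count ran from 1 to 5, with 5 without 2 h replicate 3. The part of RNA quality in these differences was not tested.

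**Figure D4:**
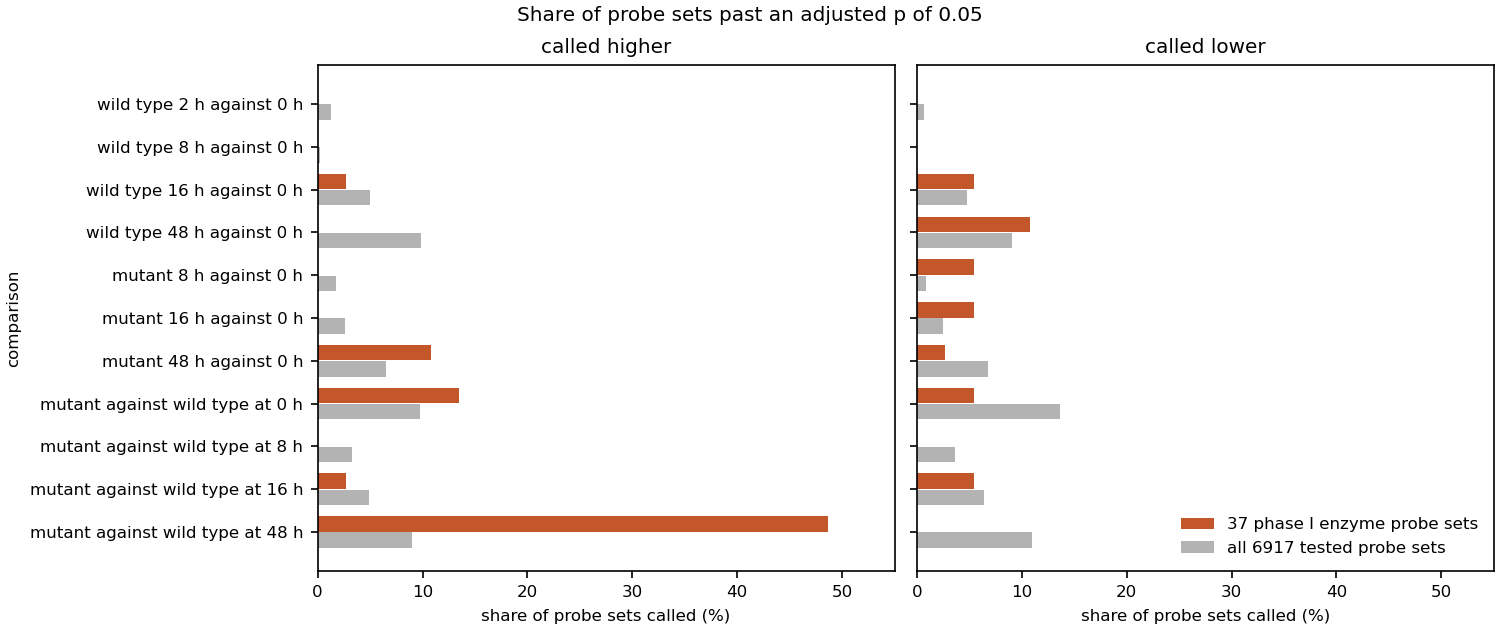
Share of probe sets called higher (left) and lower (right) at an adjusted p of 0.05 in each comparison named on the axis, for the 37 tested members and for all 6917 tested probe sets, both in percent from 0. Between the labels at 48 h 48.6% of the members and 9.02% of all probe sets were called higher; the comparison over the times together (17 of 37 members, 18% of all probe sets) is not drawn.

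The genotype labels also differed before 48 h. With higher and lower counted together, at no time compared was a larger share of members called than of all probe sets. At 0 h 7 of 37 members, for 5 genes, were called, 5 higher and 2 lower, against 23.4% of all probe sets (9.8% higher, 13.6% lower). Higher and lower together, that is 18.9% of the members, a smaller share than of all probe sets. Called higher alone, the 5 of 37 were a larger share than the 9.8% of all probe sets. The medians were 0.20 and -0.06, and 25 of 37 members were above 0, against 43.6% of all probe sets. Cyp2f2 read 25469.1, 25200.4 and 24130.2 in wild-type-labelled and 31978.3, 31741.6 and 35834.3 in mutant-labelled arrays (0.41 ± 0.12, adjusted p = 0.0183), without overlap. Aldh1a1 (0.44 ± 0.13, adjusted p = 0.0215) and 2 Aldh2 probe sets (0.44 ± 0.12 and 0.37 ± 0.13, adjusted p = 0.012 and 0.0409) were higher. A second Aldh1a1 probe set, too dim to test (median signal 139.6), was at -0.37 at 0 h. It was at 0.33, -0.14 and -0.54 at 8, 16 and 48 h. Cyp21a1 was lower (-0.31 ± 0.11, adjusted p = 0.0486). None of the 7 passed without mutant-labelled 0 h replicate 3, where Aldh1a1 was at 0.37 and Cyp2f2 at 0.35. Of these 4 genes, Aldh1a1 was also lost without wild-type-labelled replicate 1 (0.41), Cyp2f2 without wild-type-labelled replicate 3 (0.39), and Cyp21a1 without any array (-0.35 to -0.26). The second Aldh2 probe set was lost without mutant-labelled replicate 2 (0.40) or wild-type-labelled replicate 2 (0.39) or 3 (0.28). Across single arrays left out the count ran from 0 to 6, with 2 without wild-type-labelled replicate 3. After quantile normalization 1 member was called, and Aldh1a1 (0.18) and Cyp2f2 (0.16) were not.

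Aldh3a2, the fatty aldehyde dehydrogenase, is a member whose probe sets disagreed. At 0 h the brighter read 3065.4, 3152.4 and 2829.4 in wild-type-labelled and 3758.6, 3660.5 and 3966.0 in mutant-labelled arrays (0.33 ± 0.10, adjusted p = 0.0219). The dimmer read 898.1, 1347.1 and 979.6 against 745.7, 733.2 and 761.7, in the opposite order (-0.50 ± 0.17, adjusted p = 0.0408). At that time the brighter was lost without mutant-labelled (0.30) or wild-type-labelled (0.29) replicate 3, and the dimmer without any array but wild-type-labelled replicate 1 (-0.56 to -0.33). Over 0, 8, 16 and 48 h the brighter was at 0.26 ± 0.05 (adjusted p = 0.00032) and the dimmer at -0.45 ± 0.09 (adjusted p = 0.000348), both in every alternative run. So no direction can be given for Aldh3a2 as a gene.

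At 8 h limma called 0 of 37 members between the labels (8 at an unadjusted p under 0.05), against 6.87% of all probe sets (3.27% higher, 3.6% lower). At 16 h it called 3, or 8.11% of the members, 1 higher and 2 lower, against 11.3% (4.9% higher, 6.38% lower). At each of these times the share of members called was smaller than that of all probe sets. Aldh9a1 read 929.0, 955.8 and 1137.9 in wild-type-labelled arrays and 660.3, 546.1 and 498.9 in mutant-labelled ones, without overlap (-0.83 ± 0.14, adjusted p = 0.000935), in every alternative run. The other calls were the Aldh3a2 probe sets, again opposite (-0.56 and 0.32). The dimmer was lost without mutant-labelled replicate 2 (-0.44) or 3 (-0.56) or wild-type-labelled replicate 2 (-0.34). The brighter was lost without mutant-labelled replicate 2 (0.22) or 3 (0.35) or wild-type-labelled replicate 1 (0.26) or 3 (0.34). The count ran from 1 to 3.

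Over 0, 8, 16 and 48 h together, 20 of 37 members, for 16 genes, differed between the labels, 17 higher and 3 lower. That is 54.1%, against 42.7% of all probe sets (18% higher, 24.7% lower). The medians were 0.19 and -0.04. The dimmer Ces1d probe set had a lowest, median and highest signal of 9358.1, 13133.1 and 15421.8 in 12 wild-type-labelled arrays and 14945.7, 17193.6 and 30545.5 in 12 mutant-labelled arrays. Only 3 of the 24 arrays lay inside the other label's range, and the difference was 0.57 ± 0.08 (adjusted p = 1.23e-05). Cyp1a2 (0.55 ± 0.10, adjusted p = 0.000131), Cyp2f2 (0.35 ± 0.06, adjusted p = 0.000115), Cyp4v3 (0.69 ± 0.21, adjusted p = 0.0126) and Cyp2b10 (0.64 ± 0.16, adjusted p = 0.00358) were among those higher. Cyp1a2, Cyp2f2 and Cyp2b10 had a higher mean by mutant label at each of the 4 times. So did Aldh1a2, both Ces1d probe sets and the brighter Aldh3a2 probe set. Lower were Cyp2c38 (-0.66 ± 0.21, adjusted p = 0.0153), Aldh9a1 (-0.33 ± 0.07, adjusted p = 0.000599) and the dimmer Aldh3a2 probe set. Cyp3a13 (0.47 ± 0.12) and Fmo1 (0.23 ± 0.06) passed, and Cyp1a1 (0.46 ± 0.24, adjusted p = 0.129) did not. Other members called higher over the times were not higher at 16 h. There the Aldh2 probe sets were at -0.20, -0.18 and -0.13 and the called Aldh7a1 probe set at -0.13. Ephx1 and Cyp4a12b were at -0.04 and Aldh1a1 at -0.00. The differences of Cyp3a13, Fmo1 and Cyp4v3 changed sign between times too. At 0, 8, 16 and 48 h Cyp3a13 was at -0.02, -0.33, 0.64 and 1.57, and Fmo1 at 0.26, 0.08, -0.32 and 0.89. Cyp4v3 was at 0.92, 0.54, -0.18 and 1.47. Without each single array in turn 17 of the 20 were called throughout. The other 3 were Aldh1a2, a probe set of Aldh7a1 and Cyp4a12b. Aldh1a2 (0.32) was lost without 16 of the 24 arrays, down to 0.23 without wild-type-labelled 48 h replicate 3. Aldh7a1 (0.20) was lost without 15, down to 0.15 without mutant-labelled 48 h replicate 2. Cyp4a12b (0.34) was lost without mutant-labelled 0 h replicate 3 (0.26) or 8 h replicate 2 (0.31), or wild-type-labelled 0 h replicate 2 (0.30) or 48 h replicate 1 (0.27). After quantile normalization the bright members Aldh1a1 (from 0.25 to 0.03) and the brighter Ces1d probe set (from 0.28 to 0.12) were no longer called, nor was Ephx1 (from 0.19 to 0.13).

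Partners and regulators of these enzymes were followed as a fixed list of 28 genes, 25 of them on the array and 19 tested. Between the labels at 48 h 5 were higher and 1 lower, 6 of 19 where 20% of all probe sets were called, with a median of 0.13. Higher were the haem synthesis enzymes Alas1, the first and rate-setting step (0.52 ± 0.12, adjusted p = 0.005), Alad (0.45 ± 0.16, adjusted p = 0.0471) and Urod (0.86 ± 0.16, adjusted p = 0.000792). The electron carriers Cyb5a, a cytochrome (0.43 ± 0.12, adjusted p = 0.0104), and Fdx1, a ferredoxin (0.35 ± 0.10, adjusted p = 0.0189), were higher too. Ahr, the receptor that induces Cyp1 genes, was the lower one (-0.72 ± 0.10, adjusted p = 2.86e-05), at the time when Cyp1a1 and Cyp1a2 were higher. Over all 4 times 6 were higher and 1, again Ahr (-0.39 ± 0.05, adjusted p = 2.57e-06), lower. That count of 7 of 19 is no larger a share than the 42.7% of all probe sets called in that comparison. Hmox1, which breaks haem down, fell with time under both labels, by 1.70 ± 0.26 at 48 h in wild-type-labelled and 1.86 ± 0.26 in mutant-labelled arrays (adjusted p = 0.000102 and 7.29e-05). Arnt, Ahrr, Nfia, Fech, Nr1i2 and Hnf4a were too dim to test, the last 2 with all arrays at or below the floor. The list was chosen with earlier results of these data known. Alternative runs were kept for the members only. The calls of these partners and of the cell type markers were therefore not checked with single arrays left out.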

How the data were processed

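The deposited values were linear signal intensities, 1 per probe set and array, from MAS5 per the submitters' processing notes (version not given in the sources used here). Total RNA of microdissected tissue was biotin-labelled, per the labels' protocols. Equal trimmed means showed that the authors had scaled the arrays. Probe sets were named from GEO's platform annotation: of 12422, 10833 had 1 gene, 396 several and 1193 none. All 76 members matched RefSeq by gene identifier. Promoters came from RefSeq GRCm38.p6.

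Signals were floored at 115.9 and log2-transformed, and 6917 probe sets with at least 3 arrays above 578.5 were tested. Group means of 27 arrays (30 for the mutant-labelled 2 h comparison) were fitted with limma 3.58.1 in R 4.3.3 (lmFit, eBayes). P-values were two-sided, Benjamini-Hochberg adjusted over all tested probe sets, with a threshold of 0.05. A difference understates change near the floor. The code was tested on simulated data. Tables and figures were made in Python 3.11.15 (pandas 2.3.3, numpy 2.4.6, matplotlib 3.10.9), and permutations with scipy 1.17.1.

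Members and gene lists were chosen with earlier results of these data known. Named were up to 6 members with the largest rises and 6 with the largest falls per comparison, the 6 smallest p of the interaction, and a list of 28 olfactory mucosa enzymes, of which 24 had a member probe set and 19 were tested. Further members were named after their values were seen. The brightest probe set led for each gene. Alternatives were quantile normalization, adding 16 to signals instead of flooring them, testing without a filter, blocking on the replicate number, a variance trend with robust moderation, fitting all 30 arrays, fitting the compared groups alone, and omitting single arrays. Correlations between replicate numbers gave no pairing. No arrays were identical (highest correlation 0.9852).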

Additional observations from a re-analysis of the deposited data

Results flagged for a closer look

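The 48 h change from 0 h differed between the genotype labels, by a test of the difference itself, in Cyp3a13 (1.59 on the log2 scale, mutant-labelled minus wild-type-labelled), Cyp2e1 (1.13), the dimmer Ces1d probe set (0.87) and Fmo1 (0.63). The moderated F test over the changes at 8, 16 and 48 h gave an adjusted p of 0.00177 for Fmo1, 0.00663 for Cyp3a13, 0.0173 for Cyp1a1, 0.0402 for the dimmer Ces1d probe set and 0.0496 for Aldh9a1. Of the 4 differences at 48 h, 0 passed in a fit of only the groups compared, where 10 members had an unadjusted p under 0.05 in limma, and those of Ces1d, Cyp2e1 and Fmo1 were lost without any 1 of 7, 8 and 10 of the 12 arrays. Of the F tests, Fmo1 and Cyp3a13 passed in every alternative run, Cyp1a1 was lost without either of 2 wild-type-labelled 48 h arrays, Ces1d without any of 12 of the 24 arrays and in 2 of the 7 other alternatives, and Aldh9a1 without any of 19 of the 24 and in all 7 others. Every group had 3 arrays, too few to look for single outlying arrays by a fixed rule.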

How the results depend on the processing

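Of 76 called values of single members, 23 were called in every alternative run. Of 8769 values compared 0 changed direction while called. The 8769 include F test values, which have no direction, and values of members not called, so this 0 says little about stability. Counts of members called moved as follows. With no filter on low signals the wild-type-labelled 2 h and 8 h comparisons gave 1 each, mutant-labelled 48 h 2 and the difference in the 48 h change 2. A fit of only the groups compared gave 8 for wild-type-labelled 16 h, 1 for wild-type-labelled 48 h, 0 for mutant-labelled 2 h, 3 for mutant-labelled 48 h, 1 for the labels at 16 h, 5 at 48 h, 3 for the interaction and 0 for the difference in the 48 h change. Quantile normalization gave 5 for wild-type-labelled 16 h and 1 for the labels at 0 h, with a split of 17 higher and 0 lower at 48 h and 15 and 3 over the times. With no filter the split was 15 and 1 at 48 h and 14 and 5 over the times. The variance trend with robust moderation gave 5 for wild-type-labelled 16 h. Only replicate 2 of the mutant-labelled 2 h group gave 1, with the spread taken from the other groups. Causes were not tested beyond the number of samples or probe sets that each alternative holds.

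With each array left out in turn, counts ran from 0 to 0 for wild-type-labelled 2 h, 0 to 1 for 8 h, 0 to 1 for 16 h and 1 to 6 for 48 h. For mutant-labelled arrays they ran from 1 to 5 at 2 h, 1 to 2 at 8 h, 0 to 3 at 16 h and 1 to 5 at 48 h. Between the labels they ran from 0 to 6 at 0 h, 0 to 0 at 8 h, 1 to 3 at 16 h, 10 to 18 at 48 h and 17 to 22 over the times. They ran from 2 to 9 for the interaction and 1 to 7 for the difference in the 48 h change.

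Same-numbered arrays did not deviate together in every pair, and 9 of 27 arrays correlated best with their own number. With the replicate number as a block, 18 members were called at 48 h between the labels, 18 over the times, 6 at 0 h, 2 at 16 h, 4 for the interaction and 3 for the difference in the 48 h change. For dim probe sets the signal over background is the limit.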
